A study of Homo sapiens with 24 samples.

Results

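The EGFR family of growth factor receptors and its ligands were followed in MDA686TU cells, an established human line derived from a squamous carcinoma of the head and neck. The members were the 10 genes EGFR, ERBB2, ERBB3, AREG, EREG, HBEGF, TGFA, BTC, EPGN and NRG1, taken by gene symbol from 60617 genes in the count table. The cells were left untreated (NT), or were treated for 24 h with 40 µM EGCG, with 15 µM resveratrol, or with both at these doses. Each of the 4 groups had 6 replicate libraries, so there were 24 in all. EGCG (epigallocatechin gallate), a catechin of tea leaves, was dissolved in water, and the stock of resveratrol, a plant stilbene, was in DMSO. Whether the control cells received DMSO is not given in the sources used here, so resveratrol and its solvent cannot be told apart. All groups are cultures of 1 cell line grown in DMEM/F12 with serum, and the labels do not say whether the replicates were grown on separate days. The p-values therefore measure the spread between these libraries, which may be technical in part.

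The libraries held 7034872 to 11735574 counts. The squamous epithelial label was borne out by its markers, since KRT5, KRT6A, KRT14 and KRT17 had mean normalized counts of 17180.2 or more in every group and TP63, CDH1 and EPCAM had 1909 or more. Their levels moved with treatment, as the 4 keratins fell under resveratrol (-0.41 to -0.27 on the log2 scale) and under the combination (-0.37 to -0.34), CDH1 rose (0.29 and 0.43) and TP63 rose under the combination (0.09). Their part in the results was not tested. Of 6 leukocyte and endothelial genes, PTPRC, CD3E and PECAM1 had at most 1 count in any library, CDH5 had at most 4 and CD68 at most 11. VWF, with 2 to 20 counts, was the only one of the 6 that was tested and was at -0.40 under the combination against the control (edgeR adjusted p = 0.164). In every group, mitochondrial genes took 0.249% to 0.326% of the counts of replicates 1 to 3, but 0.448% to 0.775% of those of replicates 4 to 6, with 3 libraries per group on each side. No source names a cause for this split, and for the members the log2 fold changes within each set of replicates are given beside the pooled ones. A normalized count is here the deposited raw count divided by a size factor of its library. Means are given ± SD with n = 6.

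The receptors of this family sit in the cell membrane and carry an extracellular ligand-binding part and an intracellular kinase part. Binding of a ligand makes the receptors pair, and the pair then signals through the RAS-ERK and PI3K-AKT pathways. AREG, EREG, HBEGF, TGFA, BTC and EPGN are made as membrane-bound precursors that are shed by ADAM proteases and bind EGFR, and HBEGF, BTC and EREG also bind ERBB4. NRG1 binds ERBB3 and ERBB4. ERBB2 has no known soluble ligand and acts as the preferred partner of the others, and ERBB3 has little kinase activity and needs a partner. EGFR is often abundant in squamous carcinoma of the head and neck and is a drug target there.

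Of the 7 ligand genes, 4 lie side by side on chromosome 4 of GRCh38. EPGN (74308470 to 74316789), EREG (74365145 to 74388749), AREG (74445136 to 74455005) and BTC (74744759 to 74794523) were the 4 protein-coding genes annotated from the start of EPGN to the end of BTC, a stretch with 486 kb between the outer start sites. The other members were scattered, with EGFR on chromosome 7 (55019017 to 55211628), ERBB2 on 17 (39687914 to 39730426), ERBB3 on 12 (56076799 to 56103505), HBEGF on 5 (140332843 to 140346603), TGFA on 2 (70447284 to 70554193) and NRG1 on 8. The sequences of the 250 bases before the start site are shown for the 4 neighbours, which moved in both directions, and for HBEGF, the ligand gene with the largest rise under the combination. They are RefSeq sequences of GRCh38.p14, read 5′ to 3′ on the strand of the gene, at chr4:74308220-74308469 (plus strand), chr4:74364895-74365144 (plus), chr4:74444886-74445135 (plus), chr4:74794524-74794773 (minus) and chr5:140346604-140346853 (minus). Capitals mark matches to the 5 motifs described after them.
EPGN: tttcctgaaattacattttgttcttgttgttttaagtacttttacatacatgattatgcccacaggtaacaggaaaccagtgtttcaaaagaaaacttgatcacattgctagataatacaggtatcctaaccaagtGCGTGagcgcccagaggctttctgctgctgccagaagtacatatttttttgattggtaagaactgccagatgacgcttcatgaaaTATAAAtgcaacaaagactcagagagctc
EREG: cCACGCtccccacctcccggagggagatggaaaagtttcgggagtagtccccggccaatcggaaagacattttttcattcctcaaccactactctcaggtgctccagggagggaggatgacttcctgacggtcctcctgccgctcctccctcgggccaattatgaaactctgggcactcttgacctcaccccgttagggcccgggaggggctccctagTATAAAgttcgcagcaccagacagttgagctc
AREG: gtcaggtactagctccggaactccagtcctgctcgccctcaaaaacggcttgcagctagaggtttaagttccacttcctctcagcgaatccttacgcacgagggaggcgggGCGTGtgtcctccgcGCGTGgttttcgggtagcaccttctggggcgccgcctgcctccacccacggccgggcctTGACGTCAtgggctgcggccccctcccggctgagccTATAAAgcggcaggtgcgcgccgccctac
BTC: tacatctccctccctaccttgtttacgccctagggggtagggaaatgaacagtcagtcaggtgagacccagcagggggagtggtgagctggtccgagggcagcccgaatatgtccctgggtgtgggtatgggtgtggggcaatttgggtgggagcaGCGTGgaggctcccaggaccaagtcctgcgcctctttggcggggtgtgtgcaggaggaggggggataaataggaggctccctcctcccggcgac
HBEGF: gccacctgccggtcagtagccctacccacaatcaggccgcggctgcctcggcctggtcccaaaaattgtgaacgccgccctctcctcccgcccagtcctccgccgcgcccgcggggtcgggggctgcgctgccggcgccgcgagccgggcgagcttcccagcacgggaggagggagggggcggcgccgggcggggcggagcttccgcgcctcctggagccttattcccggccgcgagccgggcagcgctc
The motifs were the cAMP response element TGACGTCA, the AP-1 site TGANTCA, the core of the aryl hydrocarbon receptor element GCGTG, the CHOP-ATF4 element TGATGNAA, each on both strands, and the TATA box TATAAA on the strand of the gene. The AREG window held 1 cAMP response element, which begins 65 bases before the start, where 1.65% of 35116 such windows hold a match. It also held 2 matches to the aryl hydrocarbon receptor core, which 32.2% of windows hold at least once, and EPGN, EREG and BTC held 1 match each. A TATA box was found in EPGN (from base 29 before the start), EREG (from base 32) and AREG (from base 29), and 6.8% of windows hold one. The HBEGF window had no match to any of these letters, which says nothing of the factors. No match to the AP-1 or CHOP-ATF4 letters was found in these 5 windows, against 6.57% and 3.14% of all windows. A letter match is a description of sequence and not a bound site.

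In untreated cells, AREG and EGFR had the highest levels per length. In the authors' FPKM, which corrects for gene length, AREG was at 137 ± 10.6 and EGFR at 124 ± 7.10, and their ranges over 6 libraries overlapped. TGFA (15.8 ± 0.8) and NRG1 (13.8 ± 0.739) came next, also with overlapping ranges. Then came ERBB2 (7.36 ± 0.411), HBEGF (6.71 ± 0.681) and EREG (6.63 ± 0.429), each overlapping the next, and ERBB3 (5.60 ± 0.241), whose 6 libraries all lay below those of EREG. EPGN (0.972 ± 0.237) and BTC (0.351 ± 0.133) were the lowest, and BTC rested on 3 to 11 raw counts per library. Under the combination the order changed most for HBEGF and NRG1. HBEGF moved from place 6 to place 4, at 17.3 ± 1.71 FPKM, and NRG1 from place 4 to place 8, at 6.27 ± 0.308 FPKM.

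**Figure D1:**
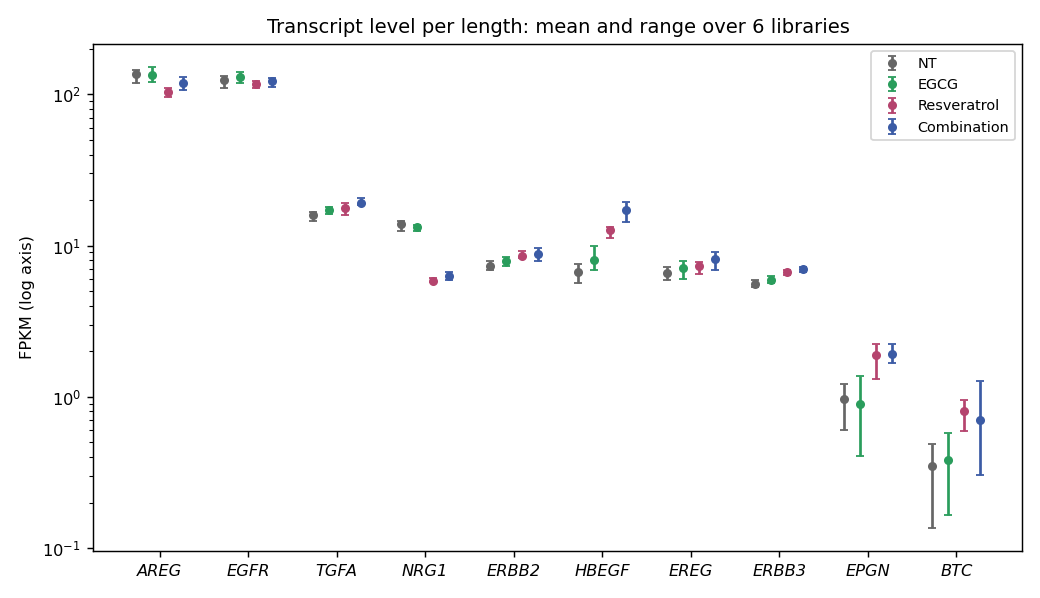
Level per length of each gene in FPKM on a log axis, as the mean (point) and range (bar) over 6 libraries in each of the 4 groups, with the genes in the order of their level in the untreated control (NT). AREG and EGFR lay above 90 FPKM in every group, HBEGF climbed from 6.71 to 17.3 and NRG1 dropped from 13.8 to 6.27 between the control and the combination.

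Under resveratrol most of these genes changed, and under EGCG alone none passed the test. A gene was called when its adjusted p was under 0.1 and its p under 0.05 in edgeR's quasi-likelihood test, with adjustment over the 15476 genes tested. All 10 members were among the genes tested. Under resveratrol against the untreated control, 10 of 10 were called, 7 upregulated and 3 downregulated, where 56.9% of all tested genes were called (28.9% upregulated and 28% downregulated). The libraries of the groups did not overlap for 7 of them, as for 31.1% of all genes. Under the combination against the control, 9 of 10 were called, 7 upregulated and 2 downregulated, where the share of all genes was 59.8% (29.9% in each direction). Here 6 did not overlap, as did 31.9% of all genes. A call is thus common in these comparisons, and the members differed in the direction and the size of the change. The median log2 fold change of the members was 0.19 under resveratrol and 0.29 under the combination, where the medians over all tested genes were 0.00 and -0.00. With scaling by library size only, the calls over all genes moved from 4466 higher and 4341 lower to 6147 higher and 2857 lower under resveratrol, and from 4633 and 4625 to 6041 and 3311 under the combination. The split of the members under the combination stayed at 7 and 2 under that scaling, and under resveratrol it was 7 and 2, without EGFR.

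Under EGCG alone 0 of 10 members were called in edgeR, where 1.76% of all genes were, and 0 of 10 had groups that did not overlap, against 1.63% of all genes. An unadjusted p under 0.05 was reached by 1570 of the 15476 genes and by 4 of the members (HBEGF at a log2 fold change of 0.27, TGFA at 0.12, ERBB2 at 0.10 and ERBB3 at 0.09), all above the control, and DESeq2 called 1, HBEGF. With the replicate set as a term in edgeR, HBEGF passed as well (adjusted p = 0.0328).

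**Figure D2:**
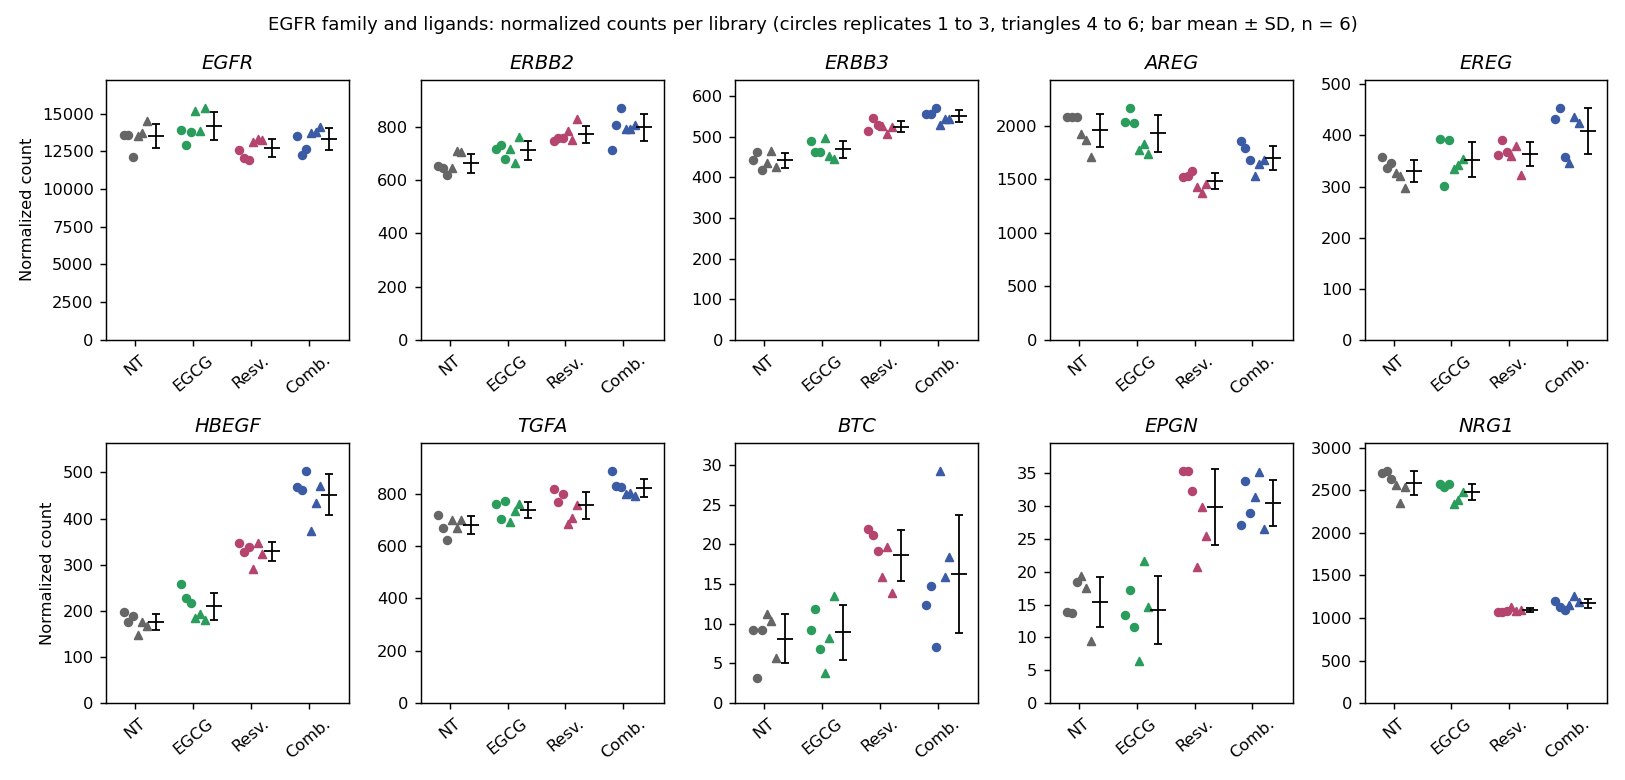
Normalized counts of the 10 genes in each of the 24 libraries, each panel with its own linear axis from 0, with circles for replicates 1 to 3, triangles for replicates 4 to 6 and a bar for the mean ± SD of 6 libraries. The HBEGF panel climbs from the control to the combination, the NRG1 panel shows 2 levels without any library between them, and the 4 groups of the EGFR panel overlap.

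HBEGF encodes heparin-binding EGF-like growth factor, a ligand of EGFR and ERBB4 that is often induced by stress and injury. It had the largest rise of the members under the combination. Its normalized counts had a lowest 147, median 176 and highest 198 in NT cells. Under EGCG these values were 179.7, 205 and 257, and under resveratrol 291, 333 and 347. Under the combination they were 373, 465 and 503. All resveratrol libraries lay above all control and EGCG libraries, and all combination libraries lay above all resveratrol libraries, so that the groups formed 3 steps with overlap only between the control and EGCG. The log2 fold change against the control was 0.91 under resveratrol (SE 0.0775, edgeR adjusted p = 2.6e-12) and 1.37 under the combination (SE 0.0752, edgeR adjusted p = 1.2e-17), the latter 2.58-fold. The change under resveratrol was 0.87 within replicates 1 to 3 and 0.97 within 4 to 6, and that under the combination was 1.37 within replicates 1 to 3 and 1.38 within 4 to 6. Between the combination and resveratrol HBEGF differed by 0.46 (SE 0.068, edgeR adjusted p = 1.9e-05), at place 60 by p among all tested genes, and by 0.50 within replicates 1 to 3 and 0.41 within 4 to 6. Groups that do not overlap, as here, were found for 3.19% of all genes in that comparison. EGCG alone gave 0.27 (SE 0.0835, edgeR adjusted p = 0.129, two-sided exact permutation p = 0.0303) and missed the limit. It was close to the limit, as without NT replicate 1 or EGCG replicate 4, 5 or 6 HBEGF passed, with log2 fold changes of 0.31, 0.30, 0.30 and 0.31. With any 1 library left out, the change under EGCG ran from 0.19 to 0.31, with an edgeR adjusted p of up to 0.39. It was 0.32 within replicates 1 to 3 (edgeR adjusted p = 0.148) and 0.19 within 4 to 6 (edgeR adjusted p = 0.702). Neither passed.

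NRG1 encodes neuregulin 1, the ligand of ERBB3 and ERBB4, and it fell in both groups with resveratrol. Its normalized counts had a lowest 2346, median 2596 and highest 2726 in NT cells, and under EGCG they were 2336, 2508 and 2569. Under resveratrol they were 1071, 1083 and 1133, and under the combination 1098, 1173 and 1258. The 12 libraries without resveratrol and the 12 with it were separated by a wide gap. NRG1 fell by 1.24 on the log2 scale under resveratrol (SE 0.0359, edgeR adjusted p = 1.1e-25), which put it at place 6 by p among the 15476 genes. The combination gave -1.14 against the control (SE 0.0359, edgeR adjusted p = 7.8e-25) and -1.08 against EGCG (SE 0.0359, edgeR adjusted p = 6.7e-24). The change under resveratrol was -1.29 within replicates 1 to 3 and -1.17 within 4 to 6, and that under the combination was -1.22 within replicates 1 to 3 and -1.05 within 4 to 6. EGCG alone gave -0.06 (SE 0.0344, edgeR adjusted p = 0.583). Between the combination and resveratrol the difference was 0.10 (SE 0.037, edgeR adjusted p = 0.111, 95% interval 0.03 to 0.18), which missed the limit. It passed without resveratrol replicate 4 (0.11) or without combination replicate 2 (0.11) or 3 (0.12). This difference was 0.07 within replicates 1 to 3 (edgeR adjusted p = 0.415) and 0.12 within 4 to 6 (edgeR adjusted p = 0.243). Neither passed. The annotated gene has many isoforms with different EGF-like parts, and the counts are summed over them.

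AREG, the gene of amphiregulin and the ligand with the highest FPKM, was the only other ligand that was downregulated among the 7 measured here. By normalized counts, which do not correct for gene length, NRG1 was higher than AREG in NT cells (means of 2585 and 1958). The normalized counts of AREG had a lowest 1710.4, median 2002 and highest 2083 in NT cells. Under EGCG they were 1738, 1930.2 and 2171, under resveratrol 1377, 1488 and 1577 and under the combination 1534, 1677 and 1857. All resveratrol libraries lay below all control libraries, while the combination overlapped both. The log2 fold change was -0.40 under resveratrol (SE 0.0506, edgeR adjusted p = 3.0e-08) and -0.20 under the combination (SE 0.0505, edgeR adjusted p = 8.2e-04). The change under resveratrol was -0.40 within replicates 1 to 3 and -0.37 within 4 to 6, and that under the combination was -0.21 within replicates 1 to 3 and -0.18 within 4 to 6. In the direct comparison AREG was higher under the combination than under resveratrol by 0.19 (SE 0.051, edgeR adjusted p = 0.0184, with 0.19 within replicates 1 to 3 and 0.19 within 4 to 6), while EGCG alone gave -0.02 (SE 0.0501, edgeR adjusted p = 0.952). The difference between these effects of EGCG, the interaction, was 0.21 (SE 0.0715, edgeR adjusted p = 0.373) and did not pass, but it did with the replicate set as a term (0.21, edgeR adjusted p = 0.0135). It was 0.20 within replicates 1 to 3 (edgeR adjusted p = 0.622) and 0.23 within 4 to 6 (edgeR adjusted p = 0.237). Neither passed. AREG and HBEGF were the 2 of 10 members called between the combination and resveratrol, both higher, where 7.86% of all genes were called and 4.01% were higher. Without combination replicate 3 the count was 4, where 6.47% of all genes were called.

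The 3 chromosome 4 neighbours of AREG were upregulated. EPGN, the gene of epigen, had a lowest 9.50, median 15.7 and highest 19.4 normalized counts in NT cells and 6.43, 14.1 and 21.7 under EGCG. Under resveratrol these were 20.8, 31.1 and 35.3 and under the combination 26.5, 30.2 and 35.1. Both groups under resveratrol lay above the control in every library. Its log2 fold change was 0.97 under resveratrol (SE 0.185, edgeR adjusted p = 3.4e-05, with 1.18 within replicates 1 to 3 and 0.72 within 4 to 6) and 0.98 under the combination (SE 0.189, edgeR adjusted p = 3.4e-05, with 0.97 within replicates 1 to 3 and 1.00 within 4 to 6). BTC, the gene of betacellulin, had a lowest 3.15, median 9.22 and highest 11.2 in NT cells and 13.8, 19.4 and 22.0 under resveratrol. Under EGCG the values were 3.86, 8.74 and 13.4, and under the combination 7.01, 15.3 and 29.2, the widest spread of the 4 groups. Its change was 1.19 under resveratrol (SE 0.268, edgeR adjusted p = 3.0e-04, with 1.51 within replicates 1 to 3 and 0.86 within 4 to 6), without overlap with the control. Under the combination, which overlapped the control, it was 0.96 (SE 0.284, edgeR adjusted p = 0.00417). It passed within replicates 4 to 6 (1.22, edgeR adjusted p = 0.00348) and not within replicates 1 to 3, which gave 0.60 (edgeR adjusted p = 0.222). EPGN and BTC had 3 to 45 raw counts per library, so their counting error is large beside that of the other members.

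EREG, the gene of epiregulin, lies between EPGN and AREG. It had a mean of 331 ± 21.4 in NT cells, 353 ± 34.9 under EGCG, 364 ± 23.2 under resveratrol and 409 ± 45.1 under the combination. The ranges were 296 to 358, 302 to 393, 323 to 391 and 346 to 455, and all 4 overlapped with their neighbours. The change under the combination was 0.30 (SE 0.0648, edgeR adjusted p = 1.3e-04, with 0.27 within replicates 1 to 3 and 0.36 within 4 to 6). Under resveratrol it was 0.14 (SE 0.0648, edgeR adjusted p = 0.0598), a call that was lost without NT replicate 6 (0.13), resveratrol replicate 2 (0.12) or resveratrol replicate 5 (0.13). It was 0.14 within replicates 1 to 3 and 0.17 within 4 to 6, and the first of these did not pass (edgeR adjusted p = 0.252). Against resveratrol, the combination gave 0.16 (SE 0.0636, edgeR adjusted p = 0.156), which passed without combination replicate 3 (0.20) or 4 (0.20). This difference was 0.13 within replicates 1 to 3 (edgeR adjusted p = 0.464) and 0.18 within 4 to 6 (edgeR adjusted p = 0.291). Neither passed. Of the 4 neighbouring genes, then, 3 were upregulated and 1 was downregulated under resveratrol, and the same held under the combination.

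TGFA, the gene of transforming growth factor alpha, rose under resveratrol and under the combination. Its normalized counts had a lowest 623, median 684 and highest 721 in NT cells, with 694, 748 and 771 for EGCG, 685, 763 and 819.6 for resveratrol and 791, 816 and 887 for the combination. Only the combination lay above the control in every library. Its log2 fold change was 0.16 under resveratrol (SE 0.043, edgeR adjusted p = 0.00207, with 0.27 within replicates 1 to 3 and 0.06 within 4 to 6) and 0.28 under the combination (SE 0.0431, edgeR adjusted p = 1.0e-06, with 0.36 within replicates 1 to 3 and 0.21 within 4 to 6). In replicates 4 to 6 alone the change under resveratrol did not pass (edgeR adjusted p = 0.402). Between the combination and resveratrol TGFA gave 0.12 (SE 0.0425, edgeR adjusted p = 0.105), which missed the limit and passed without resveratrol replicate 1 (0.14) or 3 (0.14) or combination replicate 6 (0.13). This difference was 0.08 within replicates 1 to 3 (edgeR adjusted p = 0.495) and 0.15 within 4 to 6 (edgeR adjusted p = 0.141). Neither passed.

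**Figure D3:**
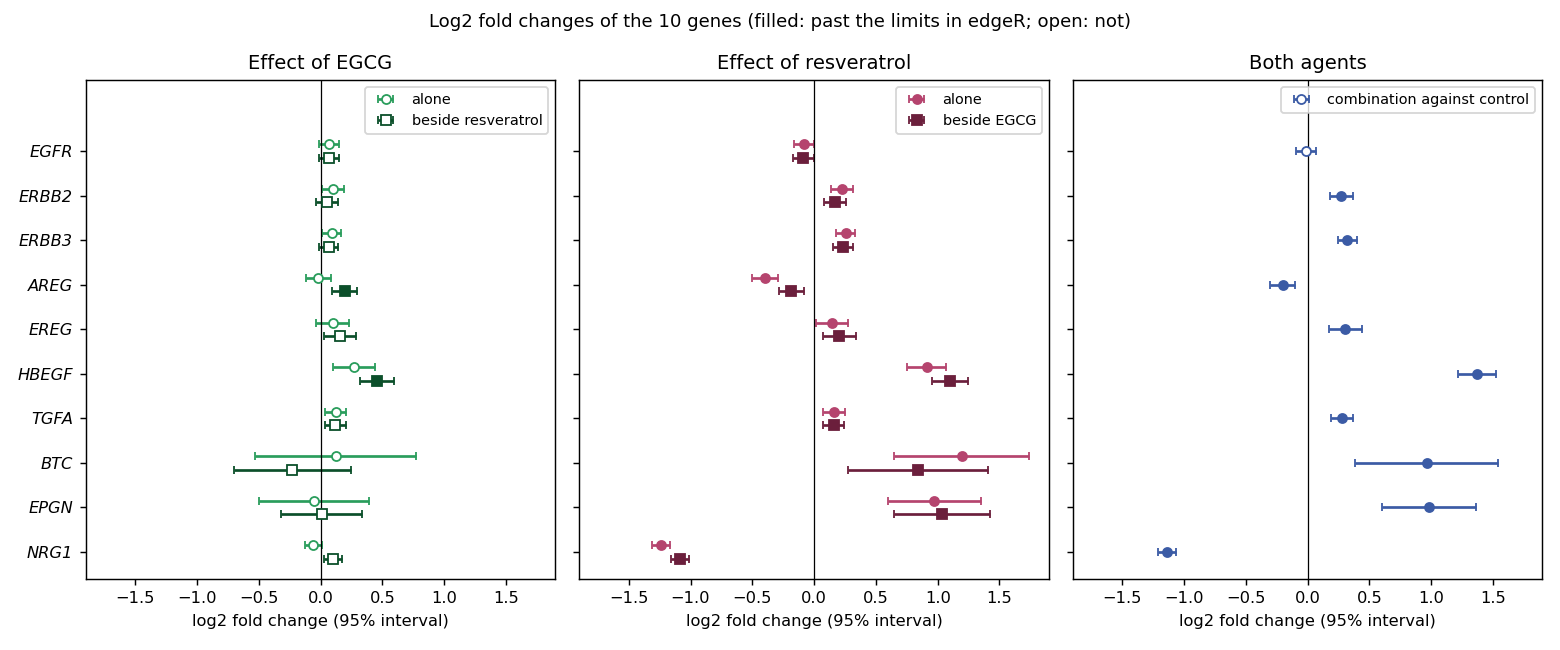
Log2 fold changes of the 10 genes with 95% intervals from edgeR for EGCG (left), resveratrol (middle) and both agents against the untreated control (right), with each single agent shown alone and beside the other agent. Filled symbols passed the limits. For resveratrol, alone and beside EGCG, NRG1 lay lowest (-1.24 and -1.08), while HBEGF (0.91 and 1.10), EPGN (0.97 and 1.04) and BTC (1.19 and 0.84) lay highest, and EGCG gave filled symbols for AREG and HBEGF beside resveratrol.

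Among the receptors, ERBB3 and ERBB2 rose under resveratrol and under the combination, while EGFR stayed within 0.10 of the control on the log2 scale. ERBB3 had a lowest 419, median 439 and highest 464 normalized counts in NT cells, 446, 463 and 497 under EGCG, 508, 525 and 546 under resveratrol and 529, 549.5 and 572 under the combination. Both groups under resveratrol lay above the control in every library. The log2 fold change was 0.26 under resveratrol (SE 0.0382, edgeR adjusted p = 6.5e-07, with 0.30 within replicates 1 to 3 and 0.24 within 4 to 6) and 0.32 under the combination (SE 0.0384, edgeR adjusted p = 6.0e-09, with 0.37 within replicates 1 to 3 and 0.29 within 4 to 6), which is 1.25-fold. The transcript of this receptor thus rose in the groups in which that of its ligand NRG1 fell.
ERBB2 had a lowest 618, median 649 and highest 709 in NT cells, 662, 717 and 760.3 under EGCG, 748, 759 and 829.8 under resveratrol and 714, 800.0 and 872 under the combination. The groups under resveratrol again did not overlap the control. Its changes were 0.22 (SE 0.0441, edgeR adjusted p = 5.7e-05, with 0.27 within replicates 1 to 3 and 0.20 within 4 to 6) and 0.27 (SE 0.0444, edgeR adjusted p = 2.3e-06, with 0.34 within replicates 1 to 3 and 0.22 within 4 to 6). Exons of ERBB2 share 571 bases with MIEN1 and 144 with PGAP3, both on the opposite strand, with 201 to 416 and 30 to 82 raw counts per library, and EGFR shares 186 with EGFR-AS1, which had 1 to 9. The strand setting of the counting is not given in the sources used here, so reads in those stretches are of uncertain origin.
EGFR, the most abundant receptor transcript, had a lowest 12109, median 13612 and highest 14507 normalized counts in NT cells, 12893, 13898 and 15406 under EGCG, 11956, 12855 and 13349.6 under resveratrol and 12252, 13624 and 14110.0 under the combination, and all 4 ranges overlapped. Under the combination the difference from the control was -0.02 (95% interval -0.10 to 0.07, edgeR adjusted p = 0.757). Under resveratrol it was -0.08 (SE 0.0402, edgeR adjusted p = 0.0848, two-sided exact permutation p = 0.0931), a call close to the limit that was lost when any of 8 of the 12 libraries was left out (NT replicates 1, 2, 4, 5 and 6 and resveratrol replicates 1, 2 and 3, with values from -0.08 to -0.04). It was -0.07 within replicates 1 to 3 and -0.07 within 4 to 6, neither of which passed. Scaled by library size alone, the sign turned (0.01). Against EGCG the combination gave -0.09 (SE 0.0402, edgeR adjusted p = 0.0701), which was lost without EGCG replicate 1, 4 or 6 or combination replicate 2 or 3, with values from -0.07 to -0.05. It was also lost with DESeq2 (-0.09), with library size alone (-0.00938), with at least 10 counts in every library (-0.06), at an adjusted p under 0.05 and within replicates 1 to 3 (-0.06). Per length, the ratio of ERBB3 to EGFR in FPKM was 0.0454 ± 0.00269 in NT cells (range 0.0405 to 0.0479) and 0.0573 ± 0.00445 under the combination (range 0.0534 to 0.063).

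The design allows each agent to be followed alone and beside the other agent in libraries that are not shared. Resveratrol against the control and the combination against EGCG share none, and 10 of 10 members changed in the same direction in both, where 85.7% of all tested genes did. In the second of these comparisons 10 of 10 members were called, 7 higher and 3 lower, where 57.8% of all genes were called (28.7% and 29.1%), and for 5 the groups did not overlap, as for 27.5% of all genes. For EGCG, alone and beside resveratrol, 6 of 10 members had the same direction, where 60.4% of all genes did. The interaction term, which tests additivity of both agents on the log2 scale, called 0 of 10 members in edgeR, where 0.265% of all genes were called, and 1 (AREG) with the replicate set as a term. DESeq2 called 0. An unadjusted p under 0.05 was reached by 1195 of the 15476 genes and by 2 members, AREG (0.21) and NRG1 (0.16). For HBEGF the interaction was 0.19 (95% interval -0.03 to 0.41).

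The make-up of the ligand transcripts shifted with these changes. Summed over the 7 ligand genes, FPKM was 181 ± 11.8 in NT cells, 182 ± 13.7 under EGCG, 149 ± 6.93 under resveratrol and 172 ± 10.1 under the combination. AREG made up 75.4 ± 1.13% of the sum in NT cells and 68.8 ± 0.68% under the combination. The share of HBEGF was 3.71 ± 0.309% in NT cells, 4.42 ± 0.363% under EGCG, 8.44 ± 0.522% under resveratrol and 10.1 ± 0.753% under the combination. That of NRG1 went the other way, from 7.66 ± 0.391% in NT cells to 3.91 ± 0.243% under resveratrol and 3.65 ± 0.279% under the combination. For both genes the libraries under resveratrol did not overlap the control. TGFA took 8.79 ± 0.816% in NT cells and 11.2 ± 0.427% under the combination, and EREG, EPGN and BTC together remained the smaller part. These shares are of transcripts and say nothing of shed protein. They also rest on the gene lengths behind the deposited FPKM.

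**Figure D4:**
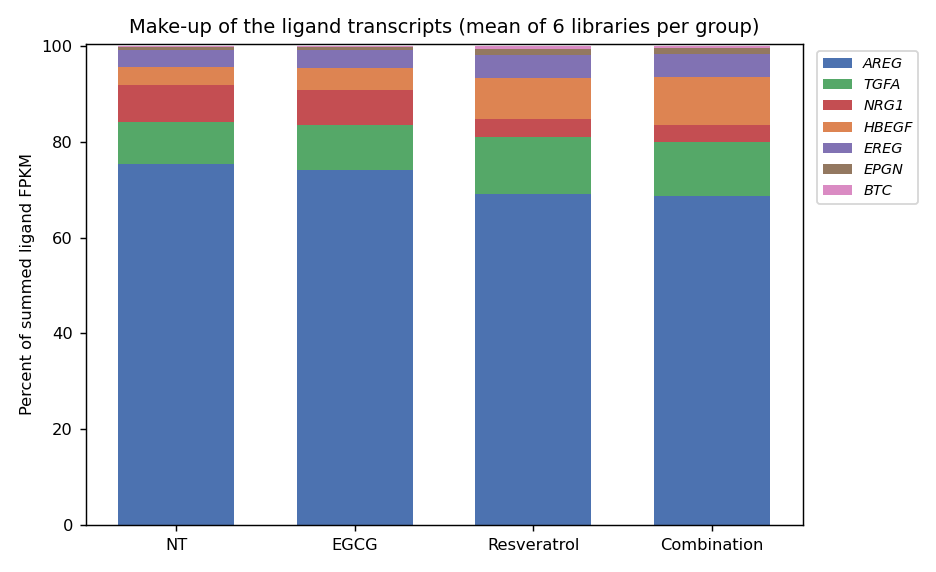
Percent of the summed FPKM of the 7 ligand genes that each gene made up, as stacked bars of the mean over 6 libraries per group. AREG filled most of every bar (75.4% in NT cells and 68.8% under the combination), HBEGF widened from 3.71% to 10.1% and NRG1 narrowed from 7.66% to 3.65%.

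The rest of the family was rare in these cells. ERBB4, the fourth receptor, had at most 1 count in any library and NRG3 had 0 in all 24, which allows up to 3 counts. NRG2 had at most 3. EGF, the ligand after which the family is named, had 2 to 3 raw counts in NT cells, 1 to 5 under EGCG, 3 to 11 under resveratrol and 4 to 13 under the combination, and was below the filter of the test. NRG4 was the only one of these 5 genes that was tested. It had 5 to 15 raw counts in NT cells and 10 to 22 under resveratrol, a log2 fold change of 0.70 (SE 0.262, edgeR adjusted p = 0.0245), and 0.49 under the combination (SE 0.277, edgeR adjusted p = 0.133). With ERBB4 at or near 0, EGFR, ERBB2 and ERBB3 were the receptors whose transcripts could be measured.

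Most ligands are released by proteases. The list for this step held 10 genes, of which 6 are ADAM proteases, RHBDF1, RHBDF2 and NRDC assist them and TIMP3 inhibits ADAM17. Of these 10, resveratrol upregulated 5 and downregulated 2, where 56.9% of all genes were called. The combination upregulated 7 and downregulated 3 (median log2 fold change 0.22, where 59.8% of all genes were called and their median was -0.00). TIMP3 was 1 of the 7, at 0.20 (SE 0.0462, edgeR adjusted p = 4.8e-04). ADAM17, the main sheddase of AREG, HBEGF and TGFA, went from 438 ± 19.1 in NT cells to 557 ± 17.6 under resveratrol and 581 ± 34.2 under the combination, with changes of 0.35 (SE 0.0432, edgeR adjusted p = 1.5e-08) and 0.41 (SE 0.0435, edgeR adjusted p = 4.5e-10). ADAM12 rose by 0.53 under the combination (SE 0.151, edgeR adjusted p = 0.00361). ADAM10, which sheds BTC, fell by 0.09 on the log2 scale under the combination (SE 0.0382, edgeR adjusted p = 0.0478), a call lost without NT replicate 1, 4, 5 or 6 or combination replicate 3 (values of -0.06, -0.06, -0.07, -0.07 and -0.05).

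Adaptors and other signaling proteins, taken here as 1 list, link the receptors to RAS, PI3K and further pathways. Of 14, the combination upregulated 6 and downregulated 2 (median 0.07), and resveratrol upregulated 8 and downregulated 2, where 59.8% and 56.9% of all genes were called. The largest changes were those of the GAB docking proteins. GAB2 went from 47.9 ± 6.54 to 100.9 ± 8.40 under resveratrol and 102 ± 11.8 under the combination (log2 fold changes 1.08 and 1.10, edgeR adjusted p = 1.7e-10 and 1.2e-10). GAB1 went from 43.7 ± 6.83 to 73.8 ± 15.8 and 82.3 ± 10.5 (0.76 and 0.91, edgeR adjusted p = 1.1e-05 and 4.1e-07).

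Of 14 genes that restrain the receptors, the combination upregulated 7 and downregulated 3 (median 0.13), where 59.8% of all genes were called. ERRFI1 (MIG6), which binds and blocks the EGFR kinase, went from 989.7 ± 36.6 to 1152 ± 57.2 under resveratrol and 1236 ± 52.2 under the combination, changes of 0.22 (SE 0.0363, edgeR adjusted p = 2.5e-06) and 0.32 (SE 0.0364, edgeR adjusted p = 1.8e-09). LRIG1, which promotes degradation of the receptors, was higher under the combination than under resveratrol by 0.37 (SE 0.0653, edgeR adjusted p = 2.8e-04). Its median normalized count was 182 in NT cells, 208 under EGCG alone, 167 under resveratrol and 216 under the combination. The ranges under EGCG alone (187 to 244) and the combination (191 to 234) overlapped. Under EGCG alone 2 of the 14 genes were called, 1 higher and 1 lower. PTPRJ, a receptor phosphatase, fell by 0.39 on the log2 scale under EGCG alone (SE 0.0883, edgeR adjusted p = 0.0122), with -0.48 within replicates 1 to 3 and -0.31 within 4 to 6, where the latter did not pass (edgeR adjusted p = 0.387). PTPRJ rose under resveratrol by 0.36 (SE 0.0801, edgeR adjusted p = 2.6e-04) and was at 0.16 under the combination (edgeR adjusted p = 0.102). Of 11 genes of receptor endocytosis, the combination upregulated 4 and downregulated 2 (median 0.06), where again 59.8% of all genes were called, and none changed by 0.5 or more on the log2 scale with either resveratrol or the combination.

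Genes that ERK signaling is known to induce moved in both directions. Of 15, the combination upregulated 3 and downregulated 8 (median -0.09), and resveratrol upregulated 2 and downregulated 7 (median -0.08). The shares of all genes called were 59.8% and 56.9%. FOSL1, a subunit of AP-1, went from 3418 ± 133 to 1928 ± 62.3 under resveratrol and 2127 ± 66.5 under the combination (-0.82 and -0.68, edgeR adjusted p = 4.5e-20 and 5.8e-18). IER3 fell by 0.64 on the log2 scale under resveratrol (SE 0.0505, edgeR adjusted p = 3.8e-13), and SPRY1, an inhibitor of the pathway, by 0.53 under the combination (SE 0.143, edgeR adjusted p = 0.00333). ETV5, an ETS factor, rose from 176 ± 14.2 to 216 ± 16.0 under EGCG, 352 ± 20.3 under resveratrol and 392 ± 9.41 under the combination (0.31, 1.00 and 1.16, edgeR adjusted p = 0.0025, 1.7e-17 and 1.6e-19). Under EGCG it was 0.41 within replicates 1 to 3 and 0.20 within 4 to 6, and the latter did not pass (edgeR adjusted p = 0.628). SPRY4 rose by 0.66 under the combination (SE 0.0859, edgeR adjusted p = 3.3e-08), and DUSP5, a phosphatase of ERK, was higher under the combination than under resveratrol by 0.38 (SE 0.0602, edgeR adjusted p = 6.0e-05). In that comparison 7 of the 15 were called, 6 of them higher, where 7.86% of all genes were called.

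**Figure D5:**
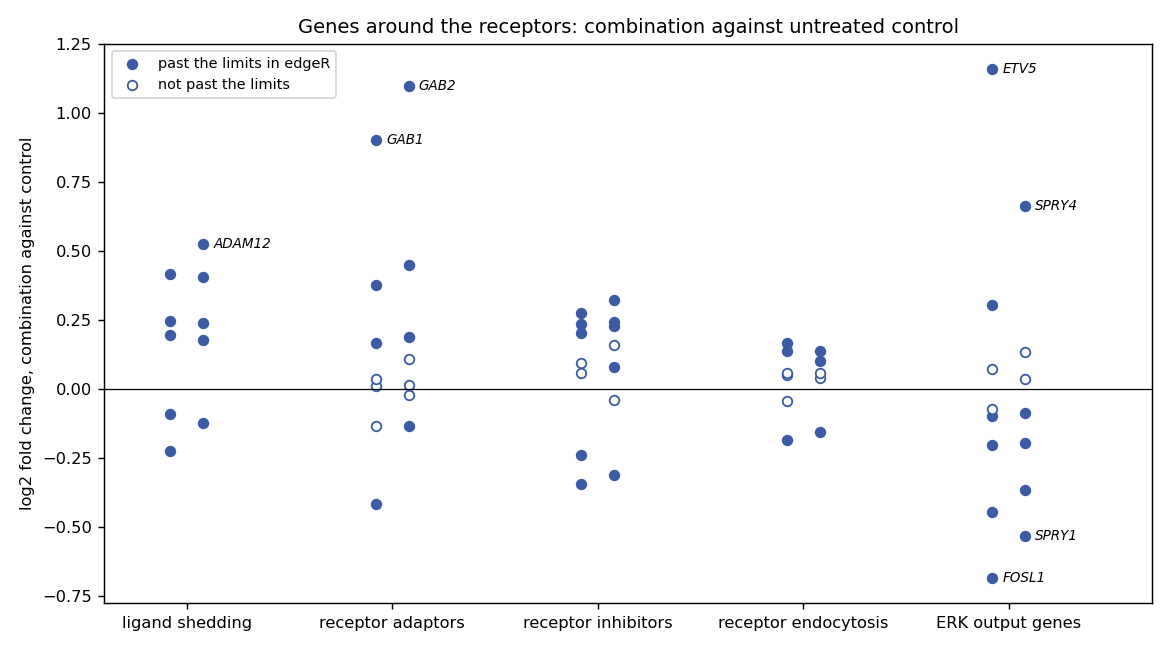
Log2 fold change of the combination against the untreated control for each tested gene of 5 lists around the receptors, with filled symbols for genes past the limits in edgeR and names beside genes that changed by over 0.5. GAB2 (1.10) and ETV5 (1.16) lay highest and FOSL1 (-0.68) lowest, and no gene of receptor endocytosis reached 0.5 in either direction.

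Over the 24 libraries the log2 level of NRG1 was most like those of THBS1, SMS and FAM83C, with Pearson correlations of 0.991, 0.99 and 0.989. That of ERBB3, the receptor with the smallest p under the combination, was most like XBP1, LGALS3BP and TOB1, with 0.947, 0.946 and 0.945. The median normalized count of THBS1, the gene of thrombospondin 1, was 23652 in NT cells and 14386 under the combination, and that of XBP1, a transcription factor of the unfolded protein response, was 1092 and 1640.1. The 24 points fall into 4 treatment groups of 1 cell line, and the correlations describe likeness over these libraries only.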

How the data were processed

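RNA of 24 libraries of 1 human cell line was sequenced from a stranded mRNA kit, with 6 per group, grouped by the submitters' labels. Per the submitters' processing notes, the tools were bcl2fastq 2.17.1.14, Trimmomatic 0.36, FastQC 0.11.5, HISAT2 2.0.4, SAMtools 1.3.1 and DESeq2 1.20.0, with the GRCh38 build. The counting program, annotation release and strand setting are not given in the sources used here. The deposited raw counts per gene were whole numbers. The deposited normalized counts, a signal scaled by the authors, equalled the raw counts divided by DESeq2 size factors. The deposited FPKM values kept a constant ratio to the normalized counts of a gene. Symbols were taken from the gene identifiers.

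Raw counts of genes that passed filterByExpr (15476 of 60617) were scaled by TMM and tested with the quasi-likelihood test of edgeR 4.0.16 in R 4.3.3, with all 24 libraries and 4 groups in 1 fit and Benjamini-Hochberg adjustment over all tested genes. A gene was called at an adjusted p under 0.1 and a p under 0.05, with no limit on the fold change, for 6 comparisons. The biological coefficient of variation was 5.32%. Exact permutation tests of mean log2 CPM were two-sided over 924 splits of 6 against 6, with a smallest possible p of 0.00216. Alternatives were DESeq2 1.42.0, other scalings, filters, limits and samples, a replicate block, the replicate set as a term, and leaving out each library. Scripts were tested on simulated data. Counting error is smallest for EGFR and largest for BTC, at totals of 7034872 to 11735574.

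The members, the lists and the tests were chosen with earlier results of these data known. Pathway genes were named where called with a log2 fold change of at least 0.5 in either direction with resveratrol or the combination against the control, or of at least 0.3 for EGCG alone or beside resveratrol, and ADAM10, ADAM17 and ERRFI1 in any case. For the receptor and the ligand with the smallest p with the combination, the 3 genes with the highest Pearson correlation of log2 CPM were named. TIMP3 and the marker genes were named after their values had been seen. Alternatives for the pathway lists were added after the data had been seen.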

Additional observations from a re-analysis of the deposited data

How the results depend on the processing

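The number of members called stayed within 1.5 times for resveratrol against the control, the combination against the control and the combination against EGCG under all alternatives run. For EGCG against the control it was 1 (HBEGF) and not 0 with DESeq2, with every gene of at least 1 count, with the replicate block and with the replicate set as a term, and 0 to 1 when 1 library was left out. Of all genes, 1.75%, 0.813%, 2.39% and 2.21% were called in these settings, in that order, against 1.76% in the main fit. Between the combination and resveratrol the number of members called was 4 (AREG, HBEGF, TGFA and NRG1) and not 2 with the replicate block and with the replicate set as a term, and 2 to 4 when 1 library was left out. Over all genes, 7.86% were called in the main fit, 9.82% with the block and 9.1% with the set as a term. The interaction called 1 member (AREG) and not 0 with every gene of at least 1 count, with the replicate block and with the replicate set as a term. Of all genes, 0.273%, 0.549% and 0.51% were called there, in that order, against 0.265% in the main fit. Whether the replicate numbers pair the libraries was not tested. In 36 pairs of same-numbered libraries the correlation of deviations ran from -0.0111 to 0.131, with a median of 0.0488. Of these pairs 2 were over 0.1, and 11 of 24 libraries correlated best with their own number among 6. Over all genes, EGCG against the control had 273 calls, 370 with the replicate block and 342 with the replicate set as a term. The block changed no other count of members by over 1.5 times. The call of EGFR with resveratrol was lost with DESeq2 (-0.09), with at least 10 counts in every library (-0.06) and at an adjusted p under 0.05, and with library size alone its sign turned (0.00537), where the median over all genes moved to 0.09. With at least 10 counts in every library BTC and EPGN were not tested, so 8 members remained. Depth limits these 2 genes most. The call of ADAM10 with the combination was lost with library size alone (-0.01) and 4 other settings. In 1 set of replicates alone, the calls of shedding genes with the combination came to 6 (replicates 4 to 6), of endocytosis genes to 3 (replicates 4 to 6, also with resveratrol) and of inhibitors to 6 (replicates 1 to 3). Calls were fewer over all genes as well. With the combination they were 50.6% in replicates 1 to 3 and 49.8% in 4 to 6, against 59.8% in the main fit. With resveratrol 46.2% were called in each set, against 56.9%. Over all settings, 949 values of the single genes and lists kept the call or its absence, or a count within 1.5 times. Another 22 lost the call, 13 gained it, 4 counts moved by over 1.5 times and the sign of 1 called value turned. With 1 library left out, 1191 were kept in this sense, 21 lost the call and 12 gained it. Direction was compared only for values called in the main fit or in the alternative. Signs of uncalled values could turn among those kept. EGFR with the combination against the control, for example, went from -0.02 to 0.07 with library size alone. The cause of these changes was not tested.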
